A study of Mus musculus with 4 samples.

Results

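Of the 268 genes on the membrane arrays used to profile muscle-derived stem cells (MDSCs), 106 (39.6%) had a normalized intensity under 0.7 in every MDSC type. These 106 genes were chosen by that value alone, after the spots of one gene were averaged and the control spots left out, so their low values are a description and were not tested. The cells were isolated by serial preplating, and for WT and Mst KO with selection for Sca1, from hind limb muscle of male mice. The labels give a C57BL/6J background for all types, while the study names the strain of its mdx mice C57BL/6/10ScSn-Dmdmdx. The Mst KO mice (Mst-/-) lack myostatin, the mdx mice (10ScSn-Dmdmdx in the labels) carry the dystrophin mutation that models muscular dystrophy, the Oct4 transgenic mice (Oct_4 transgenic) carry the Oct4 promoter with a reporter, and the WT mice are wild type. All MDSC types were grown in the same serum-rich medium until nearly confluent, and 1 array was run for each of the 4 types. The WT and Mst KO animals were young adults, and ages of the other mice were not given in the sources used here. Each RNA was a pool of several flasks, so the spread between cultures is unknown and nothing was tested. The labelled cell type was checked against muscle genes. Of 8 listed, 6, among them Myod1, Des and Cdh15, were at or above 0.7 on all 4 arrays, against 46.3% of all 268 genes. That level alone does not show muscle identity, since Cdh15, at 1.34 in mdx and 1.06 in Oct4 transgenic MDSCs, was under the brightest negative control spot of those arrays (1.67 and 1.30), whereas Myod1 and Des were above that spot on every array.

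Stem cells of adult tissue hold most lineage programs shut while keeping the genes of their own tissue ready for use. Master transcription factors such as Nanog, Hnf4a or Sox1 open a lineage, and ligands of the hedgehog, BMP, FGF and Wnt families are secreted by particular tissues to instruct their neighbours. Surface proteins such as the CD3 chains, Ms4a1 and Kdr are used to recognize T cells, B cells and endothelial cells, and their absence is a usual control for purity in preparations from muscle, which holds blood and vessels. The array was built from genes of such lineages and pathways, so the 106 genes can be read by role. In a pool of RNA, few cells that express a gene and little RNA per cell cannot be told apart.

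**Figure D1:**
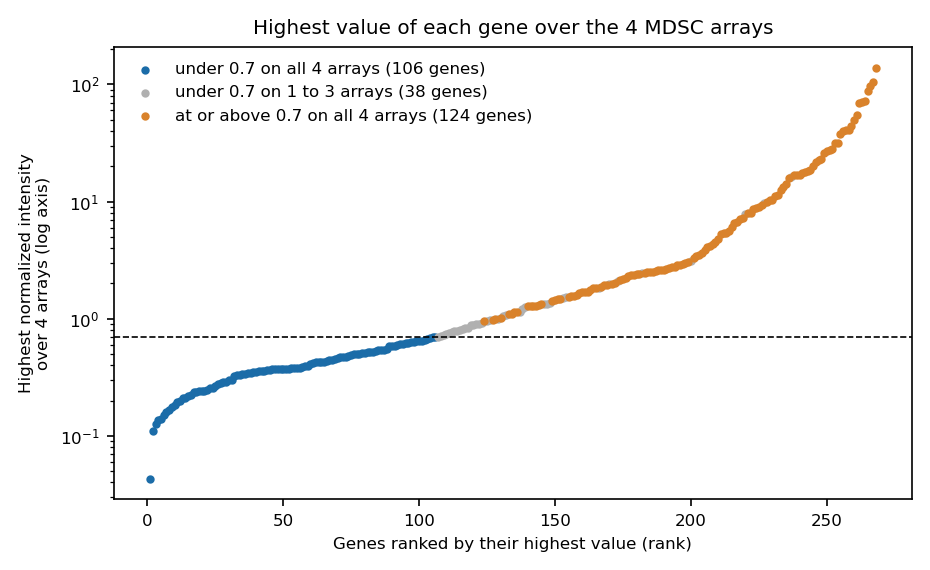
Highest normalized intensity of each of the 268 genes over the 4 arrays (log axis) against its rank, with the line at 0.7. The 106 genes under the line on all 4 arrays run without a gap into the 38 genes that were under it on 1 to 3 arrays, and the other 124 genes were at or above it on all 4.

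The 106 genes filled the lower end of a continuous range. Their highest value over the 4 arrays ran from 0.0432 for Mfng to 0.699 for Nes, with a median of 0.377. It was under 0.3 for 31 genes, from 0.3 to under 0.5 for 47 and from 0.5 for 28. Over all 268 genes the median of the highest value was 1.12. On a single array, 128 genes (47.8%) were under 0.7 in Mst KO, 121 (45.1%) in mdx, 131 (48.9%) in Oct4 transgenic and 131 (48.9%) in WT MDSCs, so that the 106 genes made up most of the low genes of each array. At or above 0.7 on all 4 arrays were 124 genes (46.3%). Just inside the limit were Foxd3 at 0.663 on the WT array, Piwil2 at 0.672 on the mdx array, Numbl at 0.685 and Prox1 at 0.698 on the Oct4 transgenic array, and Nes at 0.699 on the WT array. Just outside were Rhoc at 0.702 and Fut4 at 0.719 on the Mst KO array, Fgf3 at 0.710 on the WT array, and Cdh9 at 0.733 and Psen2 at 0.759 on the mdx array. No break in the values separated these neighbours. Of the 38 genes under 0.7 on some arrays only, 19 passed it on a single array, which was the mdx array for 10, the Mst KO array for 4, the Oct4 transgenic array for 2 and the WT array for 3.

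Most of these spots were close in brightness to the membrane around them. The limit corresponded to a raw intensity of 443 on the Mst KO array, 395 on the mdx array, 417 on the Oct4 transgenic array and 451 on the WT array. The raw spots of the 106 genes had medians of 278, 277, 269 and 270 in the same order, and the local background around them had medians of 265, 261, 268 and 259. Counting the spots that did not exceed their own local background gave 50 of the 106 genes for Mst KO, 60 for mdx, 64 for Oct4 transgenic and 60 for WT MDSCs. The rule, which used the same spots, had selected for dim ones. On all 4 arrays together, 33 of the 106 genes never exceeded the local background and 26 always did, among these Fgf12, Lfng, Smad4, Wnt1 and Numbl. The zero of each array was itself set by one of these genes. The lowest spot, which the authors' software took as background, was Zfp42 on the Mst KO and WT arrays, Mfng on the mdx array and Fgfr3 on the Oct4 transgenic array.

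**Figure D2:**
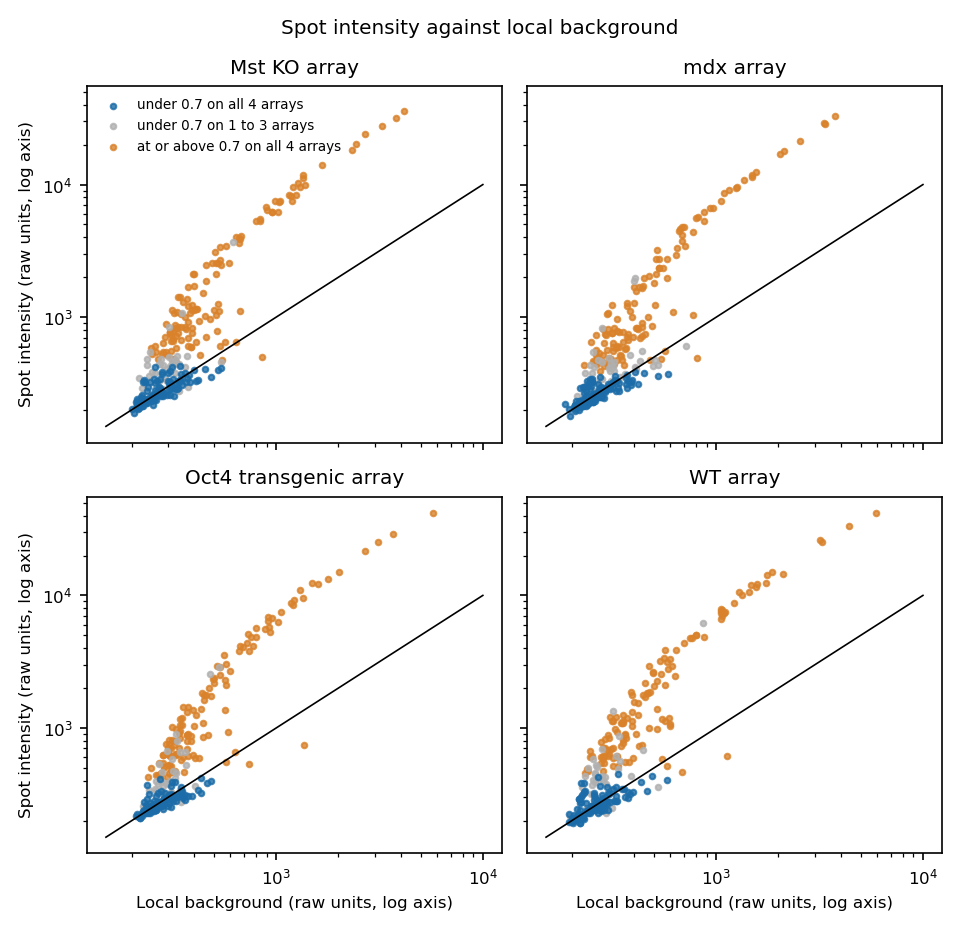
Raw spot intensity against local background (both log axes) for each gene on each array, with the line of equality. The genes under 0.7 on all 4 arrays lie along the line on every array, and 50, 60, 64 and 60 of the 106 lie on or below it on the Mst KO, mdx, Oct4 transgenic and WT arrays.

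Control spots lay both within the range of the 106 genes and above it. The brightest negative control, Artificial Sequence 1, was at 1.30 in Mst KO, 1.67 in mdx, 1.30 in Oct4 transgenic and 1.58 in WT MDSCs, above every one of the 106 genes and above the limit of 0.7. Whether its target was added to the labelled RNA is not given in the sources used here. PUC18, plasmid DNA, and Pol1, a sequence of Escherichia coli, were at 0.447 and 0.436 with Mst KO RNA, 0.436 and 0.264 with mdx RNA, 0.315 and 0.222 with Oct4 transgenic RNA, and 0.320 and 0.349 with WT RNA. At or under the higher of this pair lay 91, 79, 77 and 85 of the 106 genes, in the same order of arrays. The pair of spots without a probe, which border the bright B2m spots, were at 0.383 and 0.733 with Mst KO RNA, 0.452 and 0.708 with mdx RNA, 0.702 and 0.841 with Oct4 transgenic RNA, and 0.532 and 0.533 with WT RNA. No gene of the 106 was above the higher Blank spot on the first 3 of these arrays, and 5 were on the WT array. The pair differed by 0.350, 0.256 and 0.139 on the Mst KO, mdx and Oct4 transgenic arrays and by 0.00104 on the WT array. For a gene of the 106, the median distance from its lowest to its highest value over the 4 arrays was 0.227, and the largest was 0.637, for Cd3d. With distances of this size between empty spots of a membrane, neither the order of these genes nor the order of the arrays for one gene can be read as a difference in RNA, and such orders below describe the measured values.

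**Figure D3:**
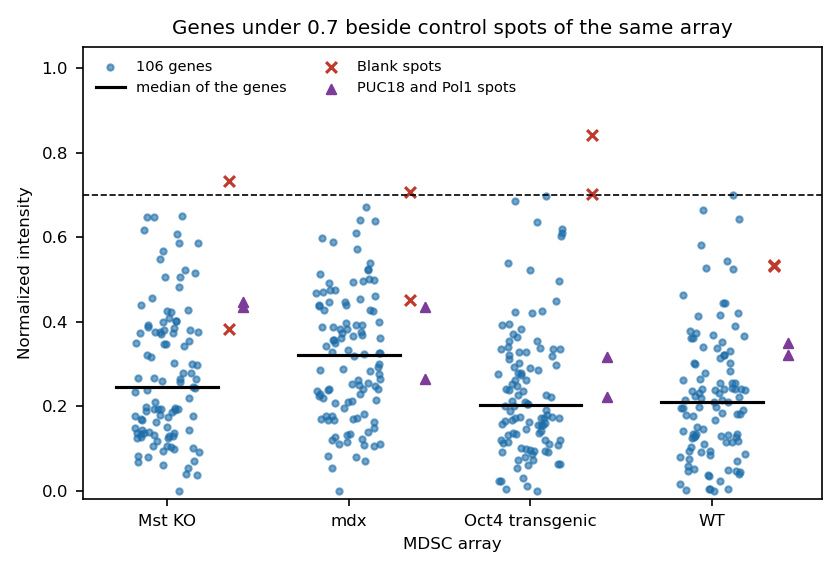
Normalized intensity of the 106 genes on each array, with their median, beside the Blank, PUC18 and Pol1 spots of the same array and the line at 0.7. The medians are 0.245, 0.321, 0.202 and 0.210 on the Mst KO, mdx, Oct4 transgenic and WT arrays, under the Blank spots of each array.

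By array, the median of the 106 genes was 0.245 in Mst KO, 0.321 in mdx, 0.202 in Oct4 transgenic and 0.210 in WT MDSCs. The highest of a gene's 4 values was on the mdx array for 44 genes, on the Mst KO array for 28, on the Oct4 transgenic array for 15 and on the WT array for 19. The median over all 268 genes was 0.755, 0.835, 0.791 and 0.743, also highest on the mdx array. Each array had been divided by its own factor, which was 363, 309, 297 and 370 raw units in that order. The authors' software called 105 of the 106 genes absent on all 4 arrays, against 119 (44.4%) of the 268 genes, and this call was made from the same intensities. The exception was Nes, called present on the WT array. The order of the 106 genes, whose range the rule had narrowed, had Spearman correlations between 0.21 (mdx and WT) and 0.52 (Mst KO and mdx). Within each array the value of the 106 genes followed the local background, with correlations of 0.78, 0.71, 0.78 and 0.65, and less closely the brightest of the 8 spots around them (0.37, 0.35, 0.34 and 0.24). All of these points share a membrane and its layout. The layout is nearly alphabetical, so that 71 of the 106 spots have another of them beside it in the row, and a family and its place on the membrane cannot be told apart.

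**Figure D4:**
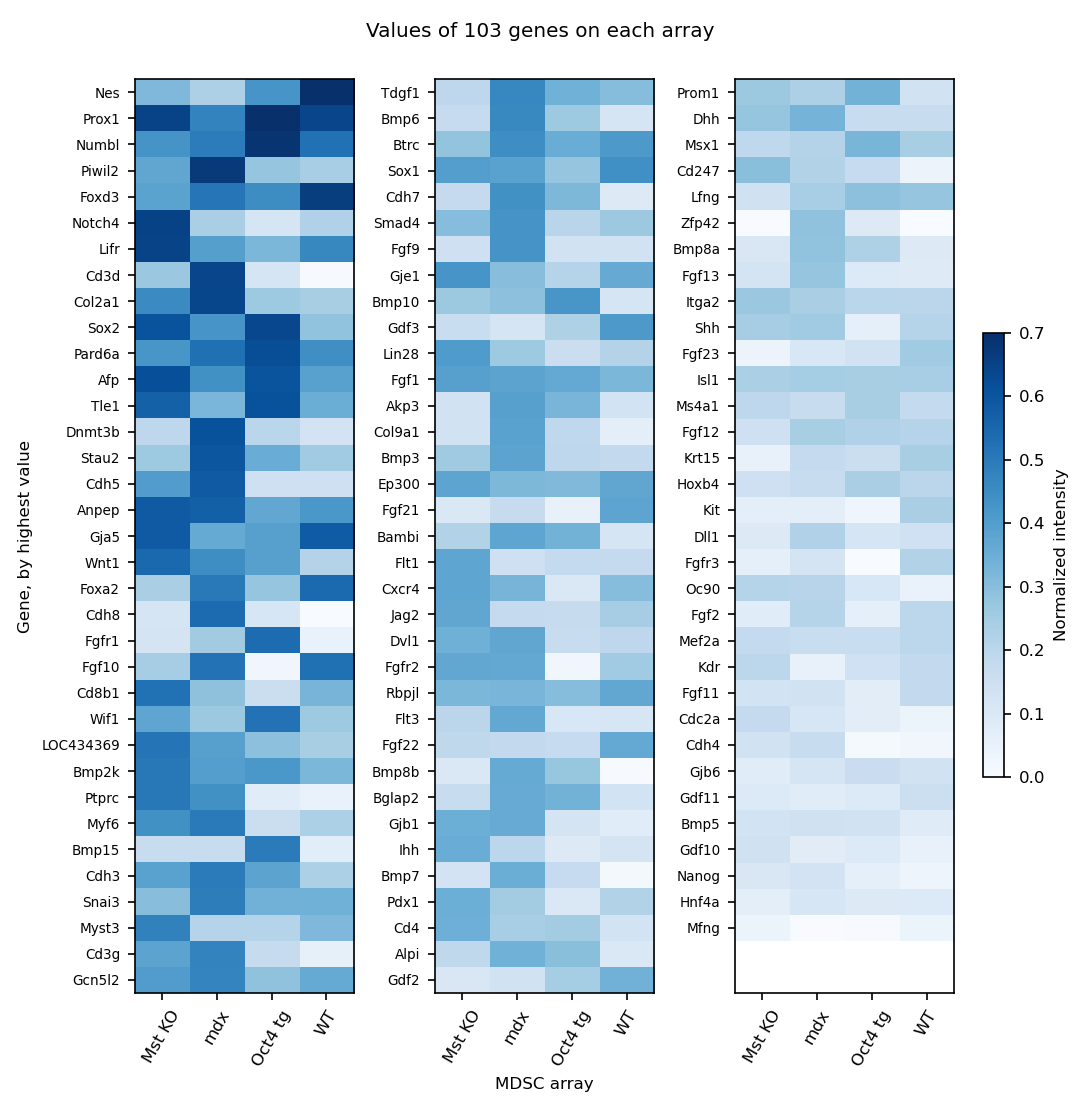
Normalized intensity (colour, 0 to 0.7) of 103 of the 106 genes on the Mst KO, mdx, Oct4 transgenic (Oct4 tg) and WT arrays, sorted by their highest value. Nes, Prox1 and Numbl head the list, and Nanog, Hnf4a and Mfng end it, with no value above 0.127.

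Genes of the pluripotent embryo fell on both sides of the limit, with 7 of 17 (41.2%) in the group, a share near the 39.6% of all 268 genes, and 9 at or above 0.7 on all 4 arrays. Of these 9, Lif, at 0.906 to 1.45, was under the brightest negative control spot of every array, as were Tert and Utf1. With that spot as the limit, 11 of the 17 listed genes were low on all 4 arrays. Akp5 was under that spot on the mdx array (1.24) and the WT array (1.15). Nanog, the homeobox factor of naive embryonic stem cells, was at 0.105 in Mst KO, 0.127 in mdx, 0.0634 in Oct4 transgenic and 0.0337 in WT MDSCs. Zfp42, the zinc finger protein Rex1 used as their marker, was at 0 in Mst KO, 0.286 in mdx, 0.0910 in Oct4 transgenic and 0 in WT MDSCs, the zeros being the lowest spots of 2 arrays. Sox2, the partner of Oct4 on DNA, was at 0.606 in Mst KO, 0.425 in mdx, 0.636 in Oct4 transgenic and 0.282 in WT MDSCs. Sox2 was highest on the Oct4 transgenic array and lowest on the WT array, and its raw spot was under its local background on all 4 arrays, with 409 against 454 on the Mst KO array, 309.6 against 386 on the mdx array, 398 against 483 on the Oct4 transgenic array and 297 against 375 on the WT array. Lin28 (now Lin28a), which blocks maturation of the let-7 microRNAs, was at 0.409 in Mst KO, 0.262 in mdx, 0.158 in Oct4 transgenic and 0.216 in WT MDSCs. Foxd3, a forkhead factor of the epiblast and neural crest, reached the top of the range at 0.385 in Mst KO, 0.514 in mdx, 0.449 in Oct4 transgenic and 0.663 in WT MDSCs. Tdgf1, the Nodal co-receptor Cripto, lay between 0.193 and 0.467, and Gdf3, a ligand of the same pathway, between 0.120 and 0.415. The listed genes had a median highest value of 0.984 against 1.12 for all genes. Pou5f1 itself, the gene of Oct4, was far outside the group at 16.7 in Mst KO, 11.5 in mdx, 12.1 in Oct4 transgenic and 10.0 in WT MDSCs. Its probe was thus bright on arrays where the probes of Nanog, Sox2 and Zfp42 were not.

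Of 7 transcription factors that set up germ layers and organs, 5 were under 0.7 (71.4%, against 39.6% of all 268 genes), with a median highest value of 0.348 for the list against 1.12 for all genes. Hnf4a, the master regulator of hepatocytes, was among the lowest and most even genes at 0.0710 in Mst KO, 0.110 in mdx, 0.0922 in Oct4 transgenic and 0.0947 in WT MDSCs. Isl1, a LIM homeodomain factor of motor neurons, pancreas and heart progenitors, was at 0.232 in Mst KO, 0.248 in mdx, 0.238 in Oct4 transgenic and 0.242 in WT MDSCs, an interval of 0.0153 that was the smallest of all 106 genes. Pdx1, required for the pancreas, was at 0.348 in Mst KO, 0.250 in mdx, 0.0987 in Oct4 transgenic and 0.221 in WT MDSCs. Foxa2, a pioneer factor of endoderm, was at 0.238 in Mst KO, 0.501 in mdx, 0.279 in Oct4 transgenic and 0.544 in WT MDSCs. Msx1, a homeobox factor of limb and craniofacial mesenchyme, was at 0.186 in Mst KO, 0.216 in mdx, 0.328 in Oct4 transgenic and 0.241 in WT MDSCs. The array with the highest value differed among them, being mdx for Hnf4a and Isl1, Mst KO for Pdx1, WT for Foxa2 and Oct4 transgenic for Msx1. The other listed genes, T and Ascl2, were at or above 0.7 on all arrays.

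The products of liver and gut were low with their regulators. Afp, the fetal serum protein of yolk sac and liver, was at 0.616 in Mst KO, 0.438 in mdx, 0.602 in Oct4 transgenic and 0.390 in WT MDSCs, with every raw spot under its local background. Alpi, intestinal alkaline phosphatase, was at 0.191 in Mst KO, 0.341 in mdx, 0.297 in Oct4 transgenic and 0.102 in WT MDSCs, and Akp3, a further intestinal form that no list held, was at 0.133 in Mst KO, 0.392 in mdx, 0.327 in Oct4 transgenic and 0.131 in WT MDSCs. All 4 listed genes of liver, pancreas and gut were under 0.7, against 39.6% of all 268 genes. Of these, Hnf4a and Pdx1 were also counted above among the germ layer and organ factors, so the lists overlap. Prox1, a homeobox factor of lymphatic vessels, liver and lens, was just inside the limit on the Oct4 transgenic array, and was at 0.648 in Mst KO, 0.475 in mdx, 0.698 in Oct4 transgenic and 0.642 in WT MDSCs, where 3 of the 4 values were above 0.6. Krt15, a keratin of basal epidermis and hair follicle stem cells, was at 0.0524 in Mst KO, 0.176 in mdx, 0.154 in Oct4 transgenic and 0.239 in WT MDSCs, and the other listed epithelial gene, Cdh1, passed 0.7 on the mdx array alone. Prom1, the CD133 antigen of several stem and progenitor cells, lay between 0.133 and 0.334.

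Genes of the group had promoters both rich and poor in CpG. The 250 bases before the start of Afp, Isl1 and Cdc2a are shown because they stand for a liver gene, a developmental regulator and a gene of dividing cells within the same group. They are from RefSeq on GRCm38.p6, written 5′ to 3′ on the strand of the gene, with every CpG in capitals. Afp lies at chr5:90490464-90490713 (plus strand), Isl1 at chr13:116309689-116309938 (minus strand) and Cdc2a, now Cdk1, at chr10:69352913-69353162 (minus strand).
Afp: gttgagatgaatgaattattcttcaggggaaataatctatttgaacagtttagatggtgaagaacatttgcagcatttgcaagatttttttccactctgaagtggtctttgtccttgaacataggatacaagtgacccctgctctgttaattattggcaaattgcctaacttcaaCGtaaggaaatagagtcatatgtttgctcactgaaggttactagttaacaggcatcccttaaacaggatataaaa
Isl1: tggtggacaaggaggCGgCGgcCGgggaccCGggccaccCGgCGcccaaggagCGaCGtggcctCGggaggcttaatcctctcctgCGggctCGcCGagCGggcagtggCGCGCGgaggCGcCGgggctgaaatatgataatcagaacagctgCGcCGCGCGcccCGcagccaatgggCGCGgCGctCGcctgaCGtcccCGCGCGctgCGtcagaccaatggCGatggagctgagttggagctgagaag
Cdc2a: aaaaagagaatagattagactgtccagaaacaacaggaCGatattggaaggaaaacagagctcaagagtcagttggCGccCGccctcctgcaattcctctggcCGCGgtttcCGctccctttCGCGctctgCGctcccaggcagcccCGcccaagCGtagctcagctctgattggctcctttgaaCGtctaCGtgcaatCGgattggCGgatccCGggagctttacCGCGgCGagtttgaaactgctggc
The Afp window held 1 CpG at 36.0% GC and the letters TATAAA, searched on both strands, which 14.3% of all RefSeq genes with a promoter hold in the same window. The Isl1 window held 33 CpG at 71.2% GC and the Cdc2a window 19 at 56.4% GC, both without TATAAA. A comparison of promoters over the whole group was void, because only 77 of the 106 genes were found in the promoter table.

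Of the listed blood cell genes, 10 of 16 (62.5%, against 39.6% of all 268 genes) were under 0.7, with a median highest value of 0.514 against 1.12 for all genes. Among the others, Cd3e, Cd8a and Cxcl12 were at or above 0.7 on all 4 arrays, and Kitl, Mme and Thy1 on some. Among the CD3 chains, which carry the signal of the T cell receptor, 3 of 4 were under 0.7. Cd3d was at 0.267 in Mst KO, 0.640 in mdx, 0.115 in Oct4 transgenic and 0.00333 in WT MDSCs. Cd3d thus had its high value on the mdx array and was near the zero of the WT array. Cd3g was between 0.0580 and 0.474 and Cd247, the zeta chain, between 0.0387 and 0.297, both lowest on the WT array. The co-receptor Cd4 was at 0.347 in Mst KO, 0.241 in mdx, 0.251 in Oct4 transgenic and 0.130 in WT MDSCs, and Cd8b1, the beta chain of CD8, was at 0.522 in Mst KO, 0.288 in mdx, 0.155 in Oct4 transgenic and 0.329 in WT MDSCs. The remaining chain, Cd3e, was however at 1.87 in Mst KO, 1.70 in mdx, 1.49 in Oct4 transgenic and 1.31 in WT MDSCs, and Cd8a, the alpha chain of CD8, was at 2.85 in Mst KO, 1.82 in mdx, 1.67 in Oct4 transgenic and 2.86 in WT MDSCs, so that genes of one receptor fell on both sides of the limit. The Cd3e value was under the brightest negative control spot on the WT array (1.58) and just above it on the mdx array (1.67). For B cells, Ms4a1, the CD20 antigen, was at 0.194 in Mst KO, 0.168 in mdx, 0.240 in Oct4 transgenic and 0.178 in WT MDSCs. Ptprc, the CD45 antigen of nearly all nucleated blood cells, was at 0.505 in Mst KO, 0.440 in mdx, 0.0804 in Oct4 transgenic and 0.0472 in WT MDSCs, higher on the Mst KO and mdx arrays than on the other two. Receptors of blood progenitors were low too, with Kit, the receptor of stem cell factor, at 0.0671 in Mst KO, 0.0706 in mdx, 0.0287 in Oct4 transgenic and 0.236 in WT MDSCs, and Flt3 between 0.109 and 0.369. Cxcr4, the receptor of the chemokine Cxcl12, was between 0.1003 and 0.375. Hoxb4, a homeobox factor known for expanding blood stem cells, was between 0.143 and 0.237. Anpep, the CD13 peptidase of myeloid and many other cells, was between 0.371 and 0.586.

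All 3 endothelial genes were under 0.7, as were 39.6% of all 268 genes. Kdr, the main receptor of VEGF, was at 0.194 in Mst KO, 0.0525 in mdx, 0.141 in Oct4 transgenic and 0.183 in WT MDSCs. Flt1, a second VEGF receptor, was at 0.375 in Mst KO, 0.147 in mdx, 0.178 in Oct4 transgenic and 0.177 in WT MDSCs, and Cdh5, the VE-cadherin of vessel walls, was at 0.403 in Mst KO, 0.588 in mdx, 0.147 in Oct4 transgenic and 0.146 in WT MDSCs. Flt1 was highest on the Mst KO array and Cdh5 on the mdx array, while the Kdr values stayed under 0.2 on every array.

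Of the neural genes, 4 of 14 (28.6%) were in the group, and the list had a median highest value of 1.76, against 39.6% and 1.12 for all 268 genes. Sox1, the earliest marker of neural plate, was at 0.399 in Mst KO, 0.388 in mdx, 0.278 in Oct4 transgenic and 0.443 in WT MDSCs. Nes, the intermediate filament nestin of neural and muscle progenitors, was at 0.315 in Mst KO, 0.229 in mdx, 0.426 in Oct4 transgenic and 0.699 in WT MDSCs, so that it was just inside the limit on the WT array and well inside on the others. Pard6a, a polarity protein of neural precursors and epithelia, was at 0.423 in Mst KO, 0.526 in mdx, 0.618 in Oct4 transgenic and 0.443 in WT MDSCs. Sox1 and Sox2 are closely related to Sox3, with which they form one subfamily in the neural tube. Sox3 was at 49.9 in Mst KO, 39.4 in mdx, 49.999 in Oct4 transgenic and 38.6 in WT MDSCs, among the brighter genes of the arrays, and lies in the row beside the Sox2 spot. The part of this neighbour in the Sox2 values was not tested. Numbl, a relative of the cell fate determinant Numb, was at 0.427 in Mst KO, 0.494 in mdx, 0.685 in Oct4 transgenic and 0.524 in WT MDSCs. Stau2, an RNA-binding protein of dendrites, lay between 0.255 and 0.597, Snai3, a Snail family repressor, between 0.299 and 0.492, Oc90, a protein of the inner ear otoconia, between 0.0478 and 0.210, and Piwil2, a Piwi protein of germ cells, between 0.241 and 0.672.

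All 3 hedgehog ligands were under 0.7, against 39.6% of all 268 genes. Shh, which patterns the neural tube and limb, was at 0.244 in Mst KO, 0.256 in mdx, 0.0618 in Oct4 transgenic and 0.211 in WT MDSCs. Ihh, which acts in growth plate cartilage, was at 0.354 in Mst KO, 0.195 in mdx, 0.0878 in Oct4 transgenic and 0.125 in WT MDSCs, and Dhh, of testis and peripheral nerve, was at 0.278 in Mst KO, 0.333 in mdx, 0.165 in Oct4 transgenic and 0.166 in WT MDSCs. Each of the 3 was lowest on the Oct4 transgenic array, although the Dhh values there and on the WT array were nearly the same. These are the only genes of that pathway on the array, so the receptors and the Gli factors were not measured.

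The BMP and GDF ligands, secreted proteins of the family of myostatin, made up, with their regulators, the list with the most genes in the group. Of 23 listed genes of the family and its regulators, 16 (69.6%, against 39.6% of all 268 genes) were under 0.7, with a median highest value of 0.428 against 1.12 for all genes. Of 11 BMP genes 8 were under 0.7 and none was at or above it on all arrays, and all 4 GDF genes were under 0.7, whereas all 3 BMP receptors were at or above 0.7 on every array. Bmp5, the gene of the mouse short ear mutation, was at 0.131 in Mst KO, 0.138 in mdx, 0.137 in Oct4 transgenic and 0.0834 in WT MDSCs. Bmp7, a factor of kidney and bone, was at 0.126 in Mst KO, 0.350 in mdx, 0.172 in Oct4 transgenic and 0.0154 in WT MDSCs. Bmp15, known from the oocyte, was at 0.169 in Mst KO, 0.169 in mdx, 0.497 in Oct4 transgenic and 0.0746 in WT MDSCs, where the Oct4 transgenic array stood above the other arrays. Bmp10, of the heart, lay between 0.115 and 0.423, Bmp3 between 0.181 and 0.382, Bmp6 between 0.115 and 0.461, Bmp8a between 0.0920 and 0.283 and Bmp8b between 0.00406 and 0.361. For Bmp6, Bmp7, Bmp8a and Bmp8b the mdx array was the highest and the WT array the lowest. Gdf11, the closest relative of myostatin, was at 0.0947 in Mst KO, 0.0814 in mdx, 0.0948 in Oct4 transgenic and 0.151 in WT MDSCs. Gdf10 was at 0.137 in Mst KO, 0.0790 in mdx, 0.0956 in Oct4 transgenic and 0.0518 in WT MDSCs, and Gdf2, known as Bmp9 and made in liver, lay between 0.106 and 0.338. Inside the cell and at its surface, Smad4, the shared partner of the receptor-activated Smads, was at 0.301 in Mst KO, 0.428 in mdx, 0.204 in Oct4 transgenic and 0.264 in WT MDSCs. Bambi, a decoy receptor, was between 0.117 and 0.375, and Bmp2k, a kinase induced by Bmp2, was at 0.506 in Mst KO, 0.399 in mdx, 0.421 in Oct4 transgenic and 0.322 in WT MDSCs. The receptors Bmpr1a and Bmpr2, by contrast, were at 8.09 or more on every array. Bmpr1b was at 0.810 in Mst KO, 0.966 in mdx, 1.29 in Oct4 transgenic and 0.757 in WT MDSCs. These Bmpr1b values were under the brightest negative control spot of each array (1.30, 1.67, 1.30 and 1.58).

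The FGF family fell on both sides of the limit, with 10 of 22 ligands and 3 of 4 receptors under 0.7. The receptor Fgfr3, of growing cartilage, was at 0.0604 in Mst KO, 0.121 in mdx, 0 in Oct4 transgenic and 0.220 in WT MDSCs. Fgfr1, the FGF receptor usual in mesenchymal cells, was at 0.125 in Mst KO, 0.252 in mdx, 0.539 in Oct4 transgenic and 0.0476 in WT MDSCs, with the Oct4 transgenic array above the others. Fgfr2, of epithelia, was at 0.371 in Mst KO, 0.367 in mdx, 0.0229 in Oct4 transgenic and 0.255 in WT MDSCs. The remaining receptor, Fgfr4, was at 1.08 in Mst KO, 1.54 in mdx, 4.14 in Oct4 transgenic and 1.15 in WT MDSCs. Its Mst KO, mdx and WT values were under the brightest negative control spot of those arrays (1.30, 1.67 and 1.58). Only its Oct4 transgenic value was above that spot. Among the ligands, Fgf2, a growth factor often added to stem cell cultures, was at 0.0816 in Mst KO, 0.209 in mdx, 0.0619 in Oct4 transgenic and 0.195 in WT MDSCs. Fgf11, which stays inside the cell, was at 0.129 in Mst KO, 0.132 in mdx, 0.0725 in Oct4 transgenic and 0.181 in WT MDSCs, and its relatives were low too, Fgf12 between 0.147 and 0.240 and Fgf13 between 0.0864 and 0.277. The hormone-like members were low as well, with Fgf21 between 0.0527 and 0.378 and Fgf23, which controls phosphate, between 0.0386 and 0.256. Fgf10, a mesenchymal ligand of limb and lung, was at 0.246 in Mst KO, 0.522 in mdx, 0.0221 in Oct4 transgenic and 0.527 in WT MDSCs, near 0.5 on 2 arrays and under 0.3 on the others. Fgf9 was highest on the mdx array at 0.428 and under 0.15 on the others. Fgf1 was among the most even at 0.392 in Mst KO, 0.382 in mdx, 0.365 in Oct4 transgenic and 0.322 in WT MDSCs, and Fgf22 lay between 0.174 and 0.366. The list as a whole had 13 of its 26 genes in the group, against 39.6% of all 268 genes, and a median highest value of 0.624 against 1.12 for all genes.

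Lifr, the receptor of leukemia inhibitory factor, was at 0.648 in Mst KO, 0.396 in mdx, 0.322 in Oct4 transgenic and 0.462 in WT MDSCs, near the limit on the Mst KO array only. Together with Kit and the 3 FGF receptors it made 5 of 12 listed growth factors and receptors outside the FGF and BMP ligands. That share (41.7%) was near the 39.6% of all 268 genes.

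For the Wnt pathway, 4 of 13 listed genes (30.8%, against 39.6% of all 268 genes) were under 0.7. Wnt1, the only Wnt ligand on the array and a factor of midbrain, was at 0.549 in Mst KO, 0.446 in mdx, 0.394 in Oct4 transgenic and 0.213 in WT MDSCs. The secreted inhibitor Wif1 was at 0.375 in Mst KO, 0.263 in mdx, 0.522 in Oct4 transgenic and 0.262 in WT MDSCs. Dvl1, which relays the signal from Frizzled receptors, was at 0.343 in Mst KO, 0.372 in mdx, 0.166 in Oct4 transgenic and 0.192 in WT MDSCs, and Btrc, the F-box protein that marks beta-catenin for degradation, was at 0.279 in Mst KO, 0.447 in mdx, 0.355 in Oct4 transgenic and 0.414 in WT MDSCs. The ligand was highest on the Mst KO array and the inhibitor on the Oct4 transgenic array, and the other listed genes, except Frat1, were at or above 0.7 throughout. Among the latter, Apc and Axin1 were under the brightest negative control spot on the Mst KO, mdx and WT arrays.

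For the Notch pathway the share was 8 of 30 (26.7%, against 39.6% of all 268 genes), with a median highest value of 1.75 against 1.12. The fringes, which add sugars to Notch and so change its response to ligands, were both low. Mfng was the lowest of all 106 genes at 0.0361 in Mst KO, 0 in mdx, 0.00414 in Oct4 transgenic and 0.0432 in WT MDSCs, and Lfng was at 0.139 in Mst KO, 0.241 in mdx, 0.290 in Oct4 transgenic and 0.278 in WT MDSCs. The ligand Dll1 was at 0.0916 in Mst KO, 0.224 in mdx, 0.120 in Oct4 transgenic and 0.142 in WT MDSCs, and the ligand Jag2 was at 0.373 in Mst KO, 0.177 in mdx, 0.171 in Oct4 transgenic and 0.244 in WT MDSCs. Of 4 receptors, Notch4, known from endothelium, was in the group at 0.649 in Mst KO, 0.238 in mdx, 0.120 in Oct4 transgenic and 0.224 in WT MDSCs, with the Mst KO value well above the other 3. Rbpjl, a relative of the DNA-binding partner of Notch, lay between 0.303 and 0.369, and Tle1, a corepressor recruited by Hes factors, was at 0.568 in Mst KO, 0.325 in mdx, 0.609 in Oct4 transgenic and 0.351 in WT MDSCs. A probe described as similar to mastermind-like 2 (LOC434369), for which no RefSeq entry was matched, lay between 0.239 and 0.515. The other ligands (Dll3 and Jag1) and receptors (Notch1, Notch2 and Notch3) were at or above 0.7 on every array. Of these, Dll3, at 0.726 to 1.02, was under the brightest negative control spot of every array. Notch1 was under that spot on the Mst KO, mdx and Oct4 transgenic arrays, and Notch3 on the mdx and Oct4 transgenic arrays.

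**Figure D5:**
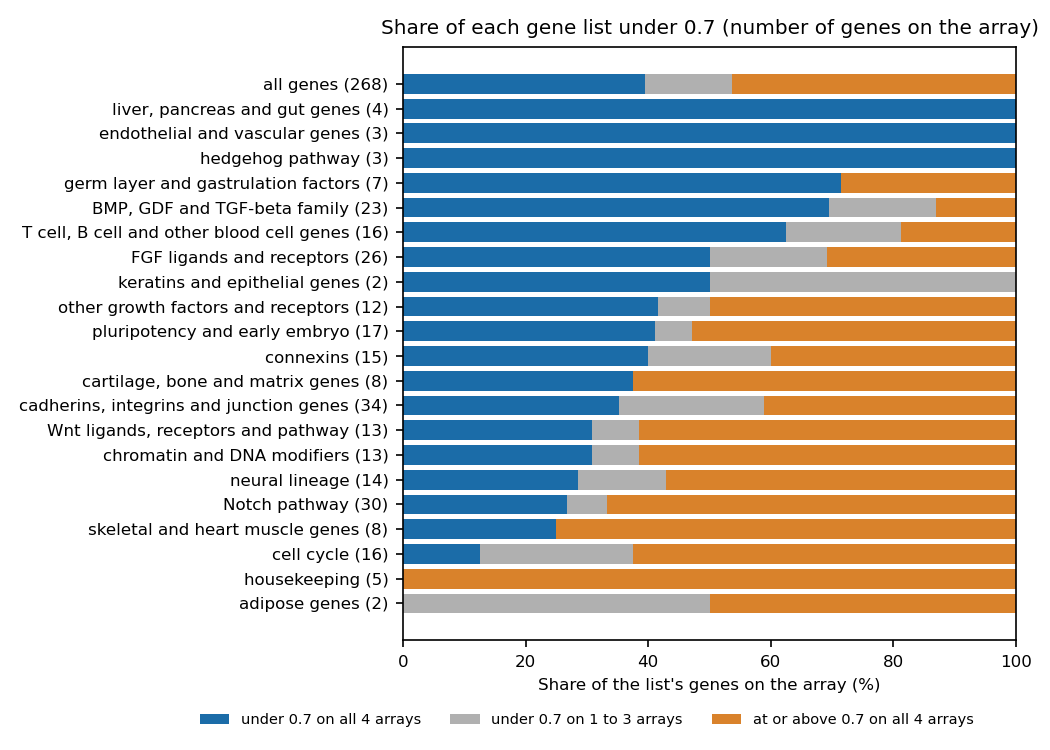
Share of the genes of each list that were under 0.7 on all 4 arrays, under 0.7 on 1 to 3 arrays, or at or above 0.7 on all 4 (percent of the list's genes on the array, number in parentheses). All genes of the hedgehog, endothelial and liver, pancreas and gut lists are under 0.7, against 39.6% of all 268 genes, and no housekeeping gene is.

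Of adhesion and junction genes, 12 of 34 (35.3%) were in the group, a share near the 39.6% of all 268 genes. Of 15 connexins, the subunits of gap junctions, 6 were under 0.7. Gja5, of atrium and arteries, was at 0.586 in Mst KO, 0.362 in mdx, 0.391 in Oct4 transgenic and 0.581 in WT MDSCs. Gjb1, of liver and myelin, was at 0.350 in Mst KO, 0.356 in mdx, 0.121 in Oct4 transgenic and 0.0804 in WT MDSCs. Gja5 was above 0.5 on the Mst KO and WT arrays, and the other values of this pair were under 0.4. Gjb6, of the inner ear and skin, lay between 0.0806 and 0.161, and Gje1, whose accession now belongs to the glial connexin Gjc3, between 0.210 and 0.426. Of 14 cadherins, 5 were under 0.7. Cdh4, the R-cadherin of retina and brain, was at 0.136 in Mst KO, 0.168 in mdx, 0.0102 in Oct4 transgenic and 0.0237 in WT MDSCs. Cdh8, a neural cadherin, was at 0.118 in Mst KO, 0.539 in mdx, 0.112 in Oct4 transgenic and 0.000416 in WT MDSCs, with the mdx array far above the rest. Cdh7 was highest on the mdx array in the same way at 0.439 and lowest on the WT array at 0.0926, and Cdh3, the P-cadherin of placenta and epithelia, lay between 0.232 and 0.497. Itga2, a collagen receptor subunit, was even, between 0.198 and 0.266.

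Of cartilage and bone genes, Col2a1, the main collagen of cartilage, was at 0.456 in Mst KO, 0.637 in mdx, 0.262 in Oct4 transgenic and 0.240 in WT MDSCs. Col9a1, which coats its fibrils, was at 0.136 in Mst KO, 0.387 in mdx, 0.188 in Oct4 transgenic and 0.0694 in WT MDSCs, and Bglap2, an osteocalcin gene, was at 0.168 in Mst KO, 0.357 in mdx, 0.335 in Oct4 transgenic and 0.129 in WT MDSCs. All 3 were highest on the mdx array and lowest on the WT array. These 3 of 8 listed genes of bone, cartilage and matrix (37.5%) were a share near the 39.6% of all 268 genes. The remaining 5 were at or above 0.7 throughout. Among them, Acan was nevertheless called absent on all 4 arrays, and its raw spot was under its local background on each.

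Among the muscle genes 2 of 8 (25%, against 39.6% of all 268 genes) were in the group. Myf6, the MRF4 factor of differentiating fibers, was at 0.439 in Mst KO, 0.498 in mdx, 0.156 in Oct4 transgenic and 0.231 in WT MDSCs. Mef2a, a MADS-box factor that works with the myogenic factors, was even at 0.179 in Mst KO, 0.164 in mdx, 0.163 in Oct4 transgenic and 0.196 in WT MDSCs. None of the 2 listed adipose genes and none of the 5 housekeeping genes was in the group, against the same 39.6% of all genes. Of the adipose genes, Ppard was under 0.7 on some arrays.

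The word silent could not be taken at face value for every gene of the group, since some are used by dividing cells of most tissues. Cdc2a (now Cdk1), the kinase that drives entry into mitosis and is needed by proliferating mouse cells, was at 0.176 in Mst KO, 0.111 in mdx, 0.0726 in Oct4 transgenic and 0.0361 in WT MDSCs. Its raw spot was under the local background on all 4 arrays, with 253 against 278 on the Mst KO array, 212 against 226 on the mdx array, 230.3 against 241 on the Oct4 transgenic array and 205 against 229 on the WT array. The cultures had been growing until nearly confluent, and Cdk4, a kinase of an earlier phase of the cycle, was at 38.2 in Mst KO, 54.7 in mdx, 36.2 in Oct4 transgenic and 27.97 in WT MDSCs. Ep300, the acetyltransferase p300 that works with most activators, was at 0.380 in Mst KO, 0.319 in mdx, 0.313 in Oct4 transgenic and 0.374 in WT MDSCs, while its close relative Crebbp was at 6.56 in Mst KO, 5.30 in mdx, 4.12 in Oct4 transgenic and 4.55 in WT MDSCs. Gcn5l2 (now Kat2a), a widespread histone acetyltransferase, was at 0.403 in Mst KO, 0.470 in mdx, 0.286 in Oct4 transgenic and 0.362 in WT MDSCs, and Myst3 (now Kat6a) was at 0.481 in Mst KO, 0.213 in mdx, 0.212 in Oct4 transgenic and 0.315 in WT MDSCs. A further chromatin gene, Dnmt3b, the de novo DNA methyltransferase of the early embryo, is not counted here among those of wide use. It was at 0.193 in Mst KO, 0.609 in mdx, 0.201 in Oct4 transgenic and 0.127 in WT MDSCs, over 0.6 on the mdx array alone. Smad4, Dvl1, Btrc and Fgfr1, given above, are also of wide use. Of the genes of the group named in this paragraph, Cdc2a, Ep300, Myst3, Dnmt3b and Btrc did not exceed their local background on any array. Gcn5l2, Smad4 and Fgfr1, by contrast, were above theirs on all 4 arrays. How far the probes of these genes respond to the RNA was not tested. The 106 genes are therefore described by their rule, as genes under 0.7 on all 4 arrays.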

How the data were processed

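RNA of 4 MDSC types was labelled and hybridized to a mouse stem cell oligonucleotide membrane array of 288 spots, of which 274 are for genes and 14 are controls. The labels name labelled cRNA and the study's methods labelled cDNA. The intensities deposited by the authors are spot intensities minus the lowest spot of the array, divided by the mean of the 144 middle spots, as was checked against the deposited raw intensities. The study describes the values as normalized with housekeeping genes, which differs from this. Because the lowest spot sets the zero and that mean sets the unit, every value depends on the other spots of its array. The deposited columns of ratios to WT were not used.

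Spots of one symbol were averaged, controls left out, and genes under 0.7 on all 4 arrays counted with pandas 2.3.3 and numpy 2.4.6 under Python 3.11.15. Correlations came from scipy 1.17.1 and plots from matplotlib 3.10.9. The counting was tested on simulated data. The members, the limit and the gene lists were chosen with earlier results of these data known. Lists are sets of symbols. The patterns that caught chemokine receptor and glucose transporter symbols by their names were dropped for that reason. Named genes were, within each list, the members with the lowest and highest values, every member of short lists, the defining genes of a lineage or pathway, and the 5 genes nearest to the limit on either side. The other members, the families and the genes set beside them were named after their values were seen. Members were matched to RefSeq by accession (100), symbol (4) or older symbol (1), and 1 was not matched. With 1 array per type there is no replicate error, the number of arrays limits the precision, and no test was run. The alternatives were the scaling, the background, the absent call, the limit, rounding, the brightest spot of a gene and leaving out each array. All counts cover the 106 genes, of which 3 are not reported by name here.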

Additional observations from a re-analysis of the deposited data

How the results depend on the processing

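The count of genes under 0.7 on all 4 arrays, 106, stayed within 1.5 times of itself under the 14 alternatives. It was 99 with Gapdh as the scale, 119 by the absent call, 137 with local background subtracted, 148 with the highest control spot as the limit, 107 after quantile normalization, 106 with scaling to the median of present genes or with the brightest spot of a gene, 104 after rounding, 78 with a limit of 0.5 and 129 with a limit of 1. Leaving out 1 array gave 108 to 116. Leaving out an array or raising the limit can only add genes, so those counts could not fall under 106. Under all alternatives 78 genes remained in the group, and these were the 78 under the limit of 0.5. Under all but that limit, 95 remained. Scaling by Gapdh removed Cd3d, Col2a1, Dnmt3b, Lifr, Notch4, Piwil2, Prox1 and Stau2. Counts of single lists moved further. With a limit of 0.5 they were 2 for neural, 2 for Wnt, 5 for Notch and 3 for other growth factor genes, against 4, 4, 8 and 5. With the highest control spot as the limit they were 11 for pluripotency, 20 for FGF, 20 for adhesion and junction, 2 for keratin and epithelial and 1 for adipose genes, against 7, 13, 12, 1 and 0. The keratin and epithelial count was also 2 by the absent call, with local background subtracted, with a limit of 1 and without the mdx array. No paired analysis was possible because each MDSC type has 1 array and the result comes from no test. With 1 array a type, depth in the sense of signal over background limits every statement here.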
